A study of Mus musculus with 8 samples.

Results

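The genes described here are 34 members of the forkhead (Fox) family of transcription factors, taken by symbol as all Fox genes of a fixed list that leaves out Foxa1 and Foxa2, out of 26213 genes of the annotation. Trimethylation of histone H3 at lysine 4 (H3K4me3) was read at each of them by chromatin immunoprecipitation and sequencing (ChIP-Seq). H3K4me3 and control input libraries came from mouse embryonic stem cells (mESCs) and from pancreatic islet-like endocrine cells (PILECs) grown from them in culture, of wt genotype (line TC-1) and of menin-null genotype (Men1-ko, line 3.2N), with 1 library for each condition and 8 libraries in all. Every sample was labelled as of the 129S6/SvEvTac background. Each genotype was represented by 1 line, so the line and the loss of menin cannot be told apart. The mESCs had been kept on irradiated embryonic fibroblast feeders and then made free of them on gelatin. The PILECs were made by way of embryoid bodies and an expansion of precursor cells. With no replicates, a difference was called when it reached 2-fold, and each ratio carries a 95% exact interval that covers counting error only and compares libraries, not conditions.

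Forkhead proteins share a winged-helix DNA-binding domain, and the family ranges from factors present in most cells to regulators that a few embryonic tissues use. The FOXO factors respond to insulin signalling, FOXM1 drives the genes of mitosis, FOXH1 brings SMAD proteins to the targets of Nodal, and many other members are switched on in mesenchyme, neural tissue, placodes or gut. H3K4me3 lies at the starts of active genes and, in mESCs, also at many developmental genes that are silent and hold the Polycomb mark as well. Menin is a subunit of the MLL1 and MLL2 complexes that write the mark.

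Where 4 values follow each other below, they are those of wt mESCs, menin-null mESCs, wt PILECs and menin-null PILECs, in that order. The H3K4me3 libraries held 2432377, 3517028, 18773635 and 17682677 tags, so values of mESCs carry the wider intervals. Input tags over the deleted exons of Men1 were present in both wt inputs, at 17 in mESCs and 22 in PILECs, and numbered 0 in both menin-null inputs. Of the genes that mark mESCs, the 5 of 6 with enough tags were all lower by 2-fold or more in PILECs of both genotypes, Pou5f1 among them. Of 12 islet genes, 8 had enough tags, and the hormone genes Ins1, Ins2, Gcg and Iapp stood at no more than 1.24 RPM (tags per 1000000 tags of the library) in any H3K4me3 library, so the islet label is not borne out at these promoters. Of 6 fibroblast genes, Col3a1 and Prrx1 were higher by 2-fold or more in PILECs of both genotypes and Thy1 was lower in both. Of 4 neural genes tested, Pax3 at 2.36 and Tubb3 at 1.40 (log2) were higher in wt PILECs and 0 of 4 were called in menin-null PILECs. Of the liver genes 0 of 4 had enough tags, and the 2 muscle genes with enough tags, Myod1 and Des, were lower in PILECs. Enough tags stands for a mean of at least 2 RPM over the 4 H3K4me3 libraries. Zfp42, Tdgf1, Myod1 and Des were under 2 RPM in both PILEC libraries and passed through their mESC values. A fall was thus partly set in advance for them, as was a rise for Col3a1, which was under 2 RPM in both mESC libraries. The part of cell mixture in the results below was not tested, and in bulk chromatin fewer cells with the mark and less mark per cell cannot be told apart.

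The promoters of 5 members are shown first, picked as examples after their values were seen: the member with the highest mean level, a pair that fell from mESCs to PILECs and a pair that was marked in no library. For each gene, 250 bases before and 50 bases after the annotated start are printed 5′ to 3′ on the gene's strand from the mm9 genome, with every CG in capitals, because CpG-dense starts are where H3K4me3 is usually found. Foxk2 (chr11:121121195-121121494, plus strand) had the highest mean level over the 4 libraries and the most CG of all members, at 62. Foxd3 (chr4:99322740-99323039, plus strand) held 25 CG and fell, as did Foxh1 (chr15:76500329-76500628, minus strand), which held 3. Foxn3, marked in all 4 libraries, also held 3. Its densest bin lay 1100 bp after the start in both mESC libraries and 1300 bp after it in both PILEC libraries. Both lie outside this window, so the count does not describe the sequence at its mark. Foxn1 (chr11:78200011-78200310, minus strand) and Foxi1 (chr11:34108040-34108339, minus strand) held 11 and 6 and were not marked over the input in any library.
Foxk2: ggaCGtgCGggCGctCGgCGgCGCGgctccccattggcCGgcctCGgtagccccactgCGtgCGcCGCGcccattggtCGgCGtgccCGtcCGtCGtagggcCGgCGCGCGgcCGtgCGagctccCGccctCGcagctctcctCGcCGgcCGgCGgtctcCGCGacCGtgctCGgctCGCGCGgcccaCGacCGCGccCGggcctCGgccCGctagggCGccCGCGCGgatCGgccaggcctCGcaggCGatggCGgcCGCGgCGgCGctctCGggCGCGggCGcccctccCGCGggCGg
Foxd3: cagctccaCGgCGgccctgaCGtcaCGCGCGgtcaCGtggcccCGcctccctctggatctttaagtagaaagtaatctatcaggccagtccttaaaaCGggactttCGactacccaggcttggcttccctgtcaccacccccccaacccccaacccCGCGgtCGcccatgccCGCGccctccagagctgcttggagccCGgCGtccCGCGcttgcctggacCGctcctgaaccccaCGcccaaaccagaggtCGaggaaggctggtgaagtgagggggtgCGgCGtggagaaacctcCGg
Foxh1: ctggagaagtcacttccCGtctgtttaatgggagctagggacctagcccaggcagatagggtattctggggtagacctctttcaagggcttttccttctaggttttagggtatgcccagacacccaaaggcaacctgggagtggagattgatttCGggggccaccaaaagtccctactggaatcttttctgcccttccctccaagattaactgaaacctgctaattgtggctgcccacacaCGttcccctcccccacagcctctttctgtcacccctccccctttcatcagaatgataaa
Foxn1: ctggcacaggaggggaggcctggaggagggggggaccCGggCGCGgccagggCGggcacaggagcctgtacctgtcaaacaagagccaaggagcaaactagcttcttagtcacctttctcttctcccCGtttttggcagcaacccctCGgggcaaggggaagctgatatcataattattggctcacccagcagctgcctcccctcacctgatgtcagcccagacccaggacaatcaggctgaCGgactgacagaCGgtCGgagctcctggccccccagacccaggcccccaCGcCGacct
Foxi1: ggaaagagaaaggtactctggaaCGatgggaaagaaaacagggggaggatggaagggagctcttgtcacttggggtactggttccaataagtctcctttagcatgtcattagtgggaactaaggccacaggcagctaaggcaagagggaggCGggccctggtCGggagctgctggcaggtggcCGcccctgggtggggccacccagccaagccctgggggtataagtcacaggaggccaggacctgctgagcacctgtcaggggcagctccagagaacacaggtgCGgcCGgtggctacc

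Over the 2001 bases centred on the start, the ratio of observed to expected CpG had a median of 0.76 among the 34 members, against 0.46 among all genes. It reached 0.6 at 27 of 34 members, or 79.4%, against 33.3% of all genes and 55.4% of the genes with a mean of at least 2 RPM. Foxo1 had the highest ratio, 0.98. The 7 members under 0.6 were Foxn1 at 0.20, Foxi1 at 0.25, Foxh1 at 0.31, Foxi2 at 0.42, Foxr1 at 0.49, Foxn4 at 0.55 and Foxd4 at 0.58. The motif TGTTTAC, a core that many forkhead proteins bind, was searched on both strands of the 300-base promoters, where its reverse complement is GTAAACA. It was in 0 of 34 members and in 2.98% of all promoters of that length, and nothing about forkhead binding follows from its absence in this window.

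A start was called marked when its H3K4me3 RPM within 1 kb was at least 2 times the input RPM of the same cells and the interval of that ratio lay above 1. By that measure 29 (55.7% of all genes), 30 (55.9%), 29 (55.9%) and 28 (55.2%) of the 34 members were marked in the 4 libraries. With promoter tags as the scale of both H3K4me3 and input, which by construction lowers the ratio at promoters, the counts were 9, 10, 14 and 12. The shares of all genes marked on that scale were not counted, so these counts have no background beside them. On the scale of all tags 26 members were marked in all 4 libraries. The shares of all genes marked in all 4 or in none were not counted. Foxn1, the regulator of thymic epithelium, and Foxi1, a regulator of the inner ear and kidney, were marked in none. Foxn1 had 2, 3, 21 and 21 tags, and Foxi1 had 0, 1, 17 and 10. The 0 tags of Foxi1 in wt mESCs allow up to 1.23 RPM at that depth. Foxn1 stood at 0.582, 0.426, 1.01 and 1.13 times its input and Foxi1 below its input in every library, and both genes fell under the mean of 2 RPM set for the comparisons, which left 32 of 34 members and 15643 of all genes.

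Whether a start was marked went with its CpG content at the members and at all genes. Of the 7 members with a ratio under 0.6, 4, 3, 2 and 2 were marked in the 4 libraries, against 34.4%, 34.6%, 34.5% and 33.7% of all genes under 0.6. Of the 27 at or above 0.6, 25, 27, 27 and 26 were marked, against 98.4%, 98.5%, 98.6% and 98.3% of all such genes. Foxh1, Foxi2, Foxn4 and Foxr1 were the CpG-poor members with the mark in wt mESCs, and of these Foxn4 alone was still marked in wt PILECs, where Foxd4, a gene of the early neural plate, was the other. The cutoff of 0.6 was chosen after the values were seen.

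**Figure D1:**
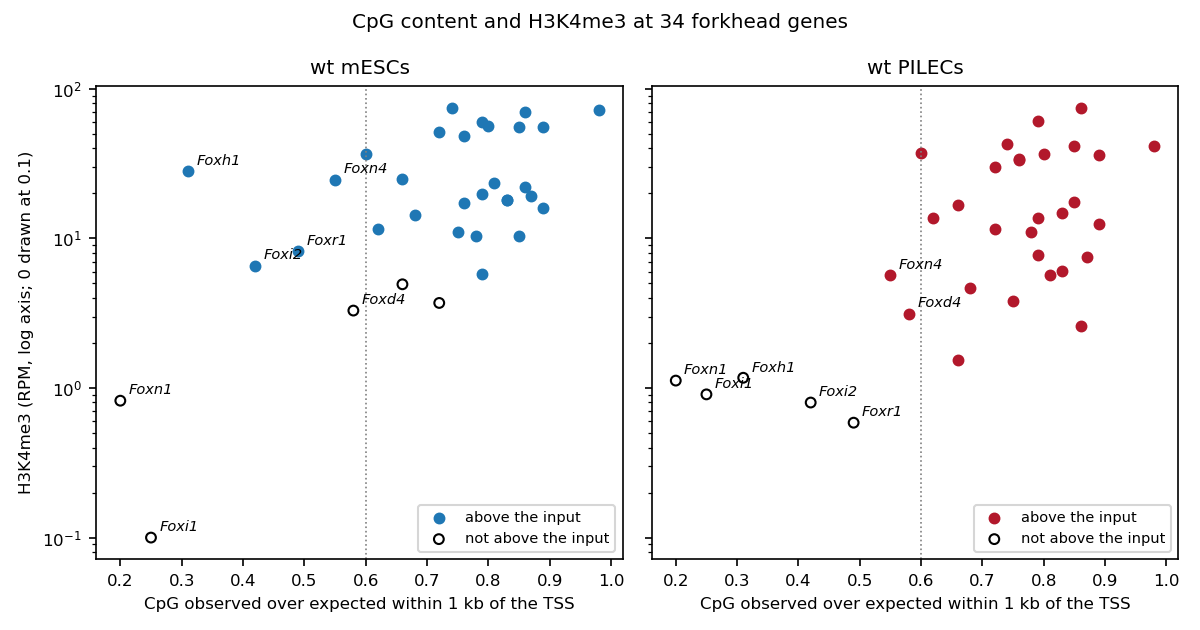
H3K4me3 within 1 kb of the start in RPM on a log axis against the ratio of observed to expected CpG in the same window, for 34 forkhead genes in wt mESCs (left) and wt PILECs (right), with filled points for starts marked over the input, open points for the others and a dotted line at 0.6. Of the 7 members left of the line, 4 were marked in wt mESCs and 2 in wt PILECs.

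The widely expressed members had the highest median levels of the mark. Foxk2, a widely expressed repressor, had the highest mean over the 4 libraries, 73.2 RPM, with 69.9, 83.6, 74.9 and 64.2 RPM in them. Foxo3, the insulin-responsive factor, came next with 59.6, 68.5, 60.9 and 66.2 RPM. Foxp4 followed with 74.8, 95.5, 42.5 and 34.4 RPM. Foxo3 was thus about level in the 4 libraries, whereas Foxp4 stood lower in both PILEC libraries. Foxk2 was about level in wt cells and lower in menin-null PILECs than in menin-null mESCs, at a log2 ratio of -0.38 (-0.57 to -0.19). The 11 widely expressed members, Foxj2, Foxj3, Foxk1, Foxk2, Foxm1, Foxn2, Foxn3, Foxo1, Foxo3, Foxp1 and Foxp4, had medians of 55.9, 74.8, 37.0 and 31.7 RPM, and all 11 were marked in each. The 6 members of mesoderm and mesenchyme (Foxc1, Foxc2, Foxd1, Foxd2, Foxf2 and Foxl1) had medians of 13.2, 15.4, 11.8 and 12.6 RPM. The 10 of neural tissue, neural crest and placodes had medians of 8.84, 10.8, 4.77 and 4.44 RPM.

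**Figure D2:**
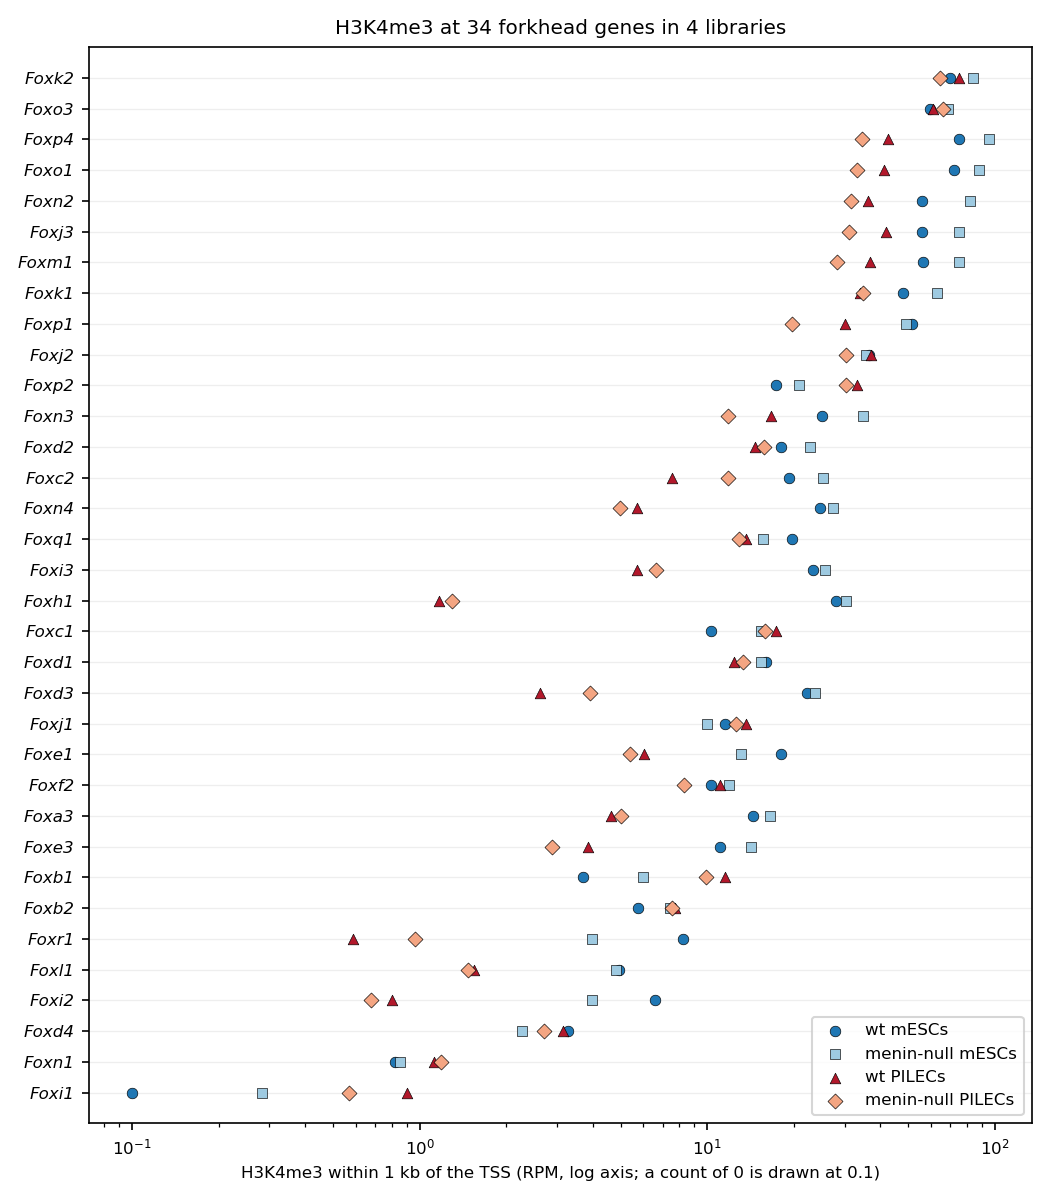
H3K4me3 within 1 kb of the start in RPM on a log axis for 34 forkhead genes, ordered by their mean, with 1 point for each of the 4 H3K4me3 libraries. Foxk2 and Foxo3 at the top change little between libraries, while the PILEC points of Foxh1, at 1.17 and 1.30 RPM, lie far left of its mESC points at 28.0 and 30.4 RPM.

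Differentiation was compared first in wt cells. Each library stands in a comparison of stages and in a comparison of genotypes, so these share samples and are given side by side. From wt mESCs to wt PILECs, 11 of 32 members were lower by 2-fold or more (15.0% of all genes were) and 1 was higher (6.62%). The 11 were Foxh1, Foxr1, Foxd3, Foxi2, Foxn4, Foxi3, Foxl1, Foxa3, Foxe1, Foxe3 and Foxc2, and the 1 was Foxb1. The filter of 2 RPM used the mean over the 4 libraries. Foxh1, Foxr1, Foxi2 and Foxl1 were under 2 RPM in both PILEC libraries and passed it through their mESC values. A fall was thus partly set in advance for them. At a mean of 5 RPM 8 members were lower, and with no filter 11, with no share of all genes counted. None of the 11 widely expressed members was called, whereas 5 of 9 neural, crest and placode members, 2 of 6 of mesoderm and mesenchyme and 2 of 3 of endoderm and epithelia were called lower. The widely expressed members were still lower by less than 2-fold, with a median log2 ratio of -0.62 and intervals below 0 at 8 of 11. The other 21 had a median of -1.37 and intervals below 0 at 12. The median log2 ratio was -0.62 over the members and -0.04 over all genes. In the menin-null cells 18 of 32 members were lower (23.5% of all genes) and 0 were higher (5.08%), with a median of -1.28 against -0.35 for all genes. Intervals below 0 were found at 20 members in wt cells (30.3% of all genes) and at 21 in menin-null cells (51.8%), and intervals above 0 at 3 (25.2%) and 2 (16.3%). All 11 members lower in wt cells were also lower in menin-null cells, and the other 7 were widely expressed. The shares of all genes lower in both genotypes, or in menin-null cells alone, were not counted.

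These counts leaned on how input was treated. Input tags over the members were denser in mESCs than in PILECs, with medians of 2.82, 2.27, 0.815 and 0.910 RPM. Subtracting the input left 10 lower (14.6% of all genes) and 2 higher (9.83%) in wt cells. Dividing each ratio by the input ratio within 5 kb moved the wt median of all genes from -0.04 to 0.53 and that of the members from -0.62 to 0.16, and left 6 lower (9.65% of all genes) and 7 higher (24.3%). In menin-null cells the division left 8 lower (13.1%) and 2 higher (13.0%), with medians of -0.38 over the members and 0.13 over all genes. Foxh1, Foxd3, Foxi2, Foxi3, Foxn4 and Foxr1 stayed lower by 2-fold or more in both genotypes in each of 12 alternatives that recomputed their ratios, and the other 5 of the 11 did not in at least 1 genotype. None of the 12 divided by the input of the same 1-kb window. Over that input Foxh1 and Foxi2 were over 2-fold lower in PILECs of both genotypes, and Foxr1 in wt PILECs alone. Foxd3 (5.34, 8.94, 3.17 and 8.97 times), Foxi3 (6.75, 12.1, 6.84 and 7.56) and Foxn4 (10.7, 11.5, 7.81 and 6.51) were 2-fold lower in neither genotype. These ratios rest on 1 to 19 input tags.

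Foxh1, the SMAD partner of Nodal signalling, had the lowest ratio among the members. Its start (chromosome 15, position 76500378, minus strand) had 68 tags (28.0 RPM) and 107 tags (30.4 RPM) in the mESC libraries, wt and menin-null, against 22 tags (1.17 RPM) and 23 tags (1.30 RPM) in the PILEC libraries. Against their inputs the mESC libraries stood at 7.09 and 7.67 times and the PILEC libraries at 1.79 and 1.54 times, and the start was not marked in PILECs. PILECs were 23.2-fold lower in wt cells, with a log2 ratio of -4.53 (95% interval -5.34 to -3.86), and 22.6-fold lower in menin-null cells, at -4.50 (-5.27 to -3.89).

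The decrease at Foxh1 did not extend to the neighbouring promoter. The start of Ppp1r16a lies 1667 bp away on the upstream side, and the stretch from 2.6 to 1.4 kb before the Foxh1 start held 14.4, 18.8, 26.1 and 24.7 RPM in the 4 libraries. The first 1 kb of Foxh1 held 28.0, 29.6, 0.799 and 1.02 RPM. The wt log2 ratio was 0.82 (0.36 to 1.40) in the upstream stretch and -5.06 (-6.04 to -4.31) in the gene's first 1 kb. A window of 2 kb on each side takes in both and gave -1.21 in wt and -1.54 in menin-null cells. A further stretch, from 2.4 to 3.8 kb past the start, lay beyond the annotated end of Foxh1 at position 76498714. It fell from 6.58 and 14.5 RPM in mESCs to 0.692 and 1.36 RPM in PILECs. The stretches were chosen after the profile was seen.

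**Figure D3:**
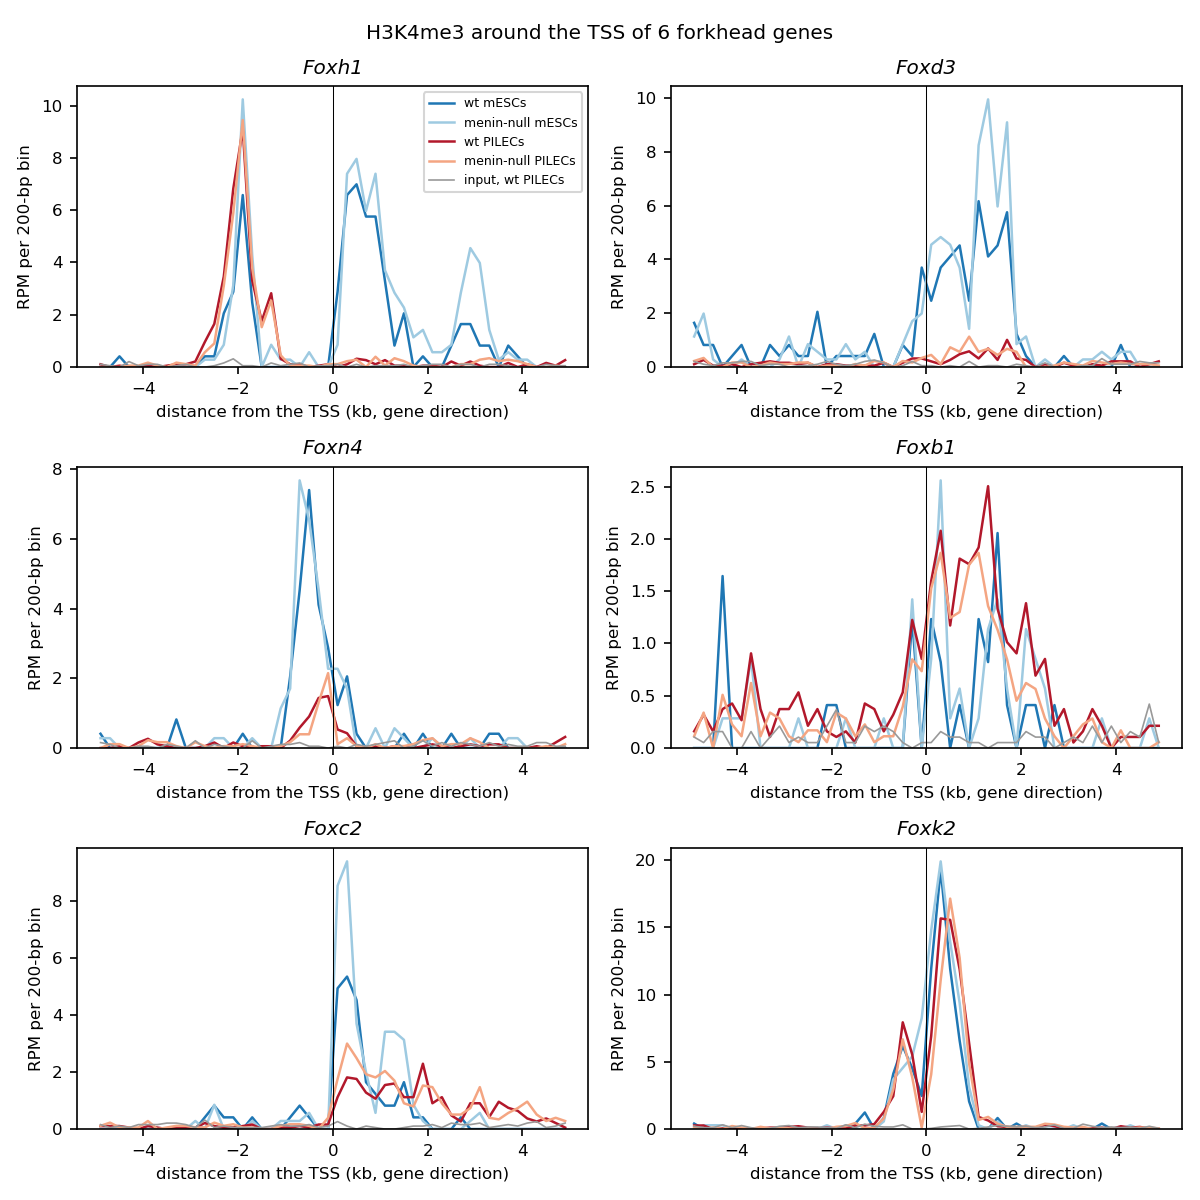
H3K4me3 in RPM per 200-bp bin from 5 kb before to 5 kb after the start, in the direction of the gene, for 6 forkhead genes in 4 libraries, with the wt PILEC input in grey and axes of different height. At Foxh1 the peak near -1.9 kb is present in all 4 libraries and the peak after the start is present in mESCs alone, while Foxc2 has more of its tags away from the start in PILECs and Foxk2 keeps its shape.

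Foxd3, which serves pluripotent cells and the neural crest and whose CpG-rich promoter is printed above, had 54, 83, 49 and 69 tags, or 22.2, 23.6, 2.61 and 3.90 RPM, so both mESC libraries were far above both PILEC libraries. Unlike Foxh1 it was still marked in PILECs, at 3.17 times its input in wt and 8.97 times in menin-null cells. In mESCs it stood at 5.34 and 8.94 times, so in menin-null cells its ratio to the input was not lower in PILECs. The menin-null ratios rest on 9 input tags in mESCs and 7 in PILECs. The log2 ratio of RPM was -3.09 (-3.68 to -2.50) in wt and -2.59 (-3.08 to -2.12) in menin-null cells. The stretch from 1.0 to 2.0 kb after the start held 21.8, 34.1, 2.61 and 2.94 RPM, with log2 ratios of -3.06 in wt and -3.52 in menin-null cells. The start of Gm12688 lies 1316 bp away, so the mark there cannot be given to Foxd3 alone.

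Foxi2 and Foxi3 belong to the Foxi class, which acts in placodes and their derivatives. Foxi3 had 57, 90, 107 and 117 tags, or 23.4, 25.6, 5.70 and 6.62 RPM, and stayed marked in PILECs at log2 ratios of -2.05 (-2.52 to -1.55) in wt and -1.96 (-2.36 to -1.54) in menin-null cells. Foxi2 had 16, 14, 15 and 12 tags, or 6.58, 3.98, 0.799 and 0.679 RPM. Its PILEC values were below the input, and its log2 ratios were -3.04 (-4.16 to -1.93) and -2.54 (-3.80 to -1.33). Foxn4, a gene of retinal and spinal progenitors, had 60, 96, 107 and 88 tags, or 24.7, 27.3, 5.70 and 4.98 RPM, with log2 ratios of -2.12 (-2.58 to -1.63) and -2.45 (-2.89 to -2.02). The densest bin of Foxn4 lay at -500 bp in wt and -700 bp in menin-null mESCs, and at -100 bp in both PILEC libraries.

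Foxr1, a gene expressed in germ cells, rested on few tags. It had 20, 14, 11 and 17 tags, or 8.22, 3.98, 0.586 and 0.961 RPM. It was marked in wt mESCs alone, at 4.58 times the input, against 2.28, 0.760 and 1.84 times in the other libraries. The log2 ratio of PILECs to mESCs was -3.76 (-5.02 to -2.68) in wt and -2.07 (-3.16 to -0.92) in menin-null cells.

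The other 5 called members did not stay 2-fold lower in all 12 alternatives in both genotypes. Foxe1, the thyroid and palate gene, had 18.1, 13.1, 6.02 and 5.37 RPM with log2 ratios of -1.61 in wt and -1.30 in menin-null cells. Foxe3, the lens gene, had 11.1, 14.2, 3.84 and 2.88 RPM with log2 ratios of -1.57 and -2.30. Foxc2, a gene of mesenchyme and lymphatic vessels, had 19.3, 25.3, 7.56 and 11.8 RPM with log2 ratios of -1.37 and -1.11. Divided by the input ratio, these became -0.49 and 0.15 at Foxe1, -0.50 and -2.03 at Foxe3, and -0.19 and 0.38 at Foxc2.

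Foxa3, a factor of endoderm and liver, had 14.4, 16.5, 4.63 and 5.03 RPM with log2 ratios of -1.66 in wt and -1.72 in menin-null cells. Sympk starts 839 bp away, and the stretch from 2.0 to 1.0 kb before the Foxa3 start held 27.1, 37.5, 28.2 and 28.0 RPM. The first 1 kb of Foxa3 held 9, 11, 5 and 11 tags, or 3.70, 3.13, 0.266 and 0.622 RPM. Most of the mark around Foxa3 in PILECs thus lay on the side of Sympk, and with a 2-kb window the wt log2 ratio was -0.36. Foxl1, a gene of gut mesenchyme, had 12, 17, 29 and 26 tags, or 4.93, 4.83, 1.54 and 1.47 RPM, with log2 ratios of -1.74 in both genotypes. Against its inputs Foxl1 stood at 1.34, 2.40, 2.03 and 1.11 times, and it was marked in menin-null mESCs and wt PILECs alone. In wt cells its ratio to the input was thus not lower in PILECs. The annotation types its model as a pseudogene, and in all 4 libraries the densest bin lay at -2500 bp, outside the window. From 3.0 to 2.0 kb before that start the 4 libraries held 5.34, 5.12, 2.13 and 2.60 RPM, a wt log2 ratio of -1.40 (-2.26 to -0.30).

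Foxb1, a gene of the neural tube and hypothalamus, was the member called higher. It had 9, 21, 216 and 175 tags, or 3.70, 5.97, 11.5 and 9.90 RPM, and both PILEC libraries stood above both mESC libraries. It was 1.25 times its input in wt mESCs, where it was not marked, and 11.6 times in wt PILECs. The log2 ratio was 1.49 (0.69 to 2.79) in wt and 0.67 (0.07 to 1.46) in menin-null cells, and a 500-bp window gave 0.87 in wt cells, under the 2-fold line. B230323A14Rik starts 206 bp away and shares the window. Of the 4 neural genes tested, Pax3 had log2 ratios of 2.36 in wt and 0.10 in menin-null cells, Tubb3 1.40 and 0.63, Neurog2 0.49 and -0.07, and Olig2 -0.13 and 0.31. The median of the 4 was 0.94 in wt and 0.20 in menin-null cells, and the part of neural cells in the result was not tested.

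Besides Foxb1, the members with an interval above 0 in wt cells were Foxp2 and Foxc1, both higher in PILECs by less than 2-fold. Foxp2, known from neurons of speech circuits, had 17.3, 20.8, 33.2 and 30.3 RPM with a wt log2 ratio of 0.91 (0.49 to 1.43). Foxc1, a gene of mesenchyme and the eye, had 10.3, 15.4, 17.4 and 15.9 RPM with 0.71 (0.17 to 1.41). In menin-null cells the ratio of Foxp2 was 0.53 (0.19 to 0.92) and that of Foxc1 was 0.03 (-0.37 to 0.50). Foxp2 also had a weak start 284 kb downstream (chromosome 6, position 15135449), with 0 and 1 tags in mESCs and 79 and 57 tags in PILECs. It held 4.21 RPM in wt PILECs, and the interval of its wt log2 ratio began at 1.44 and had no upper end. It stood at 3.86 and 2.83 times the PILEC inputs. Its mean of 1.93 RPM fell short of the 2 RPM asked of a second start, and it is named after its values were seen.

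The 7 members lower by 2-fold or more in menin-null cells alone were Foxn3, Foxp4, Foxm1, Foxo1, Foxn2, Foxp1 and Foxj3. The share of all genes lower in menin-null cells alone was not counted. Divided by the input ratio within 5 kb, none of the 7 reached 2-fold in menin-null cells. Their log2 ratios then ran from -0.76 at Foxn3 and Foxp4 to -0.40 at Foxo1. Foxo1, the other insulin-responsive factor, had 71.9, 87.9, 41.2 and 33.1 RPM, with a log2 ratio of -0.81 (-1.04 to -0.56) in wt and -1.41 (-1.61 to -1.20) in menin-null cells. Foxm1, which drives mitotic genes, had 56.3, 74.8, 36.7 and 28.3 RPM, with -0.63 (-0.88 to -0.34) and -1.41 (-1.62 to -1.18). All 7 were thus highest in menin-null mESCs or level there with wt mESCs, and lowest in menin-null PILECs. Foxp4, named above, had -0.82 and -1.48.

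Foxn2, a widely expressed gene of the Foxn class, had 55.9, 81.9, 36.2 and 31.7 RPM, with log2 ratios of -0.63 and -1.37. Foxj3 had 55.9, 75.1, 41.7 and 31.2 RPM, with -0.43 and -1.27. Foxp1, a factor of lymphoid and neural development, had 51.4, 49.2, 30.1 and 19.7 RPM, with -0.78 and -1.32. Foxn3, which is tied to cell-cycle checkpoints, had 25.1, 34.7, 16.6 and 11.8 RPM in its window, with -0.62 and -1.57. The mark of Foxn3 was densest beyond that window, and from 1.0 to 2.0 kb after the start it held 25.5, 39.8, 31.4 and 32.0 RPM, with log2 ratios of 0.28 (-0.08 to 0.70) and -0.32 (-0.59 to -0.04).

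The extra losses in menin-null cells moved with the scale of the libraries. Tags within 1 kb of any annotated start made up 43.5%, 51.4%, 42.7% and 40.1% of the 4 libraries. When those tags set the scale in place of all tags, the median of all genes in the menin-null comparison moved from -0.35 to 0.00 and that of the members from -1.28 to -0.92. Of the 32 members 14 were then lower (16.0% of all genes) and 1 was higher (9.35%), and 5 of the 11 widely expressed were among the 14. In wt cells the same scale left 11 lower (14.7% of all genes) and 1 higher (7.12%).

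**Figure D4:**
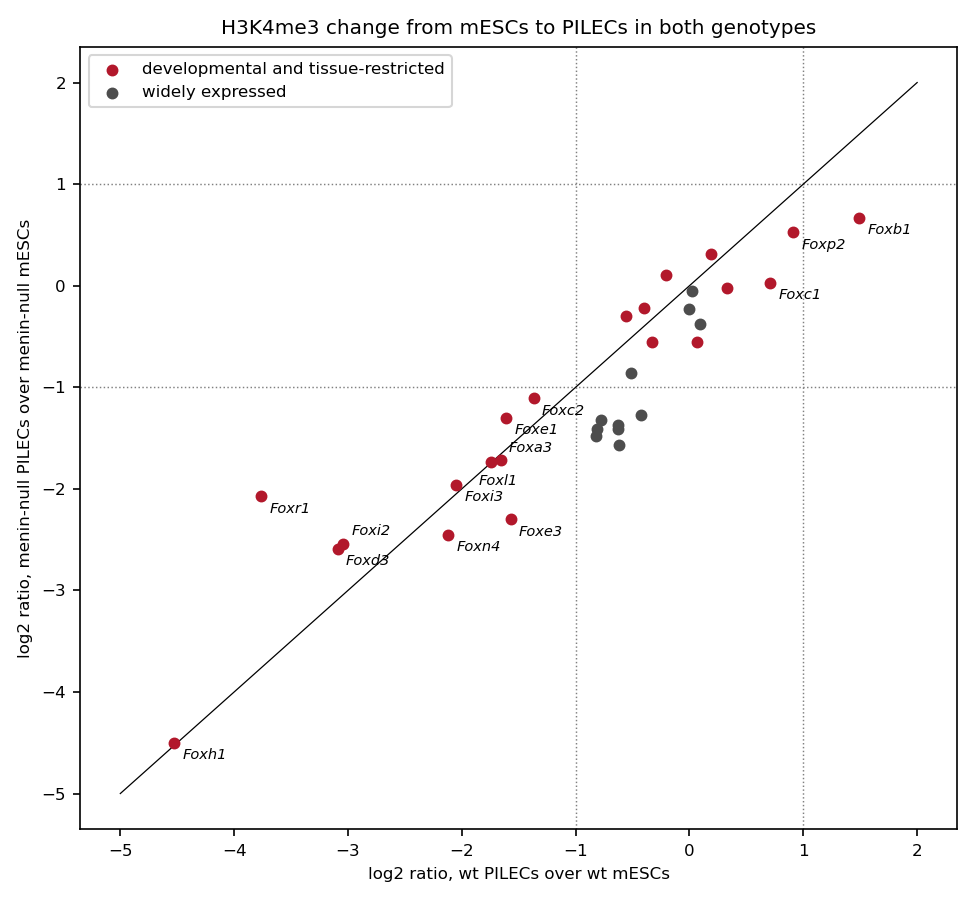
Log2 ratio of H3K4me3 RPM in PILECs over mESCs for 32 forkhead genes, wt cells on the horizontal axis and menin-null cells on the vertical, with dotted lines at 2-fold and a line of equal ratios. Foxh1 sits at -4.53 and -4.50, the widely expressed members (grey) lie below the line of equal ratios, and the 2 axes share no library.

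Loss of menin was compared next, in mESCs. In menin-null against wt mESCs 1 of 32 members was lower by 2-fold or more (1.40% of all genes) and 0 were higher (1.11%). The member was Foxr1, at 14 against 20 tags, with a log2 ratio of -1.02 and an interval of -2.14 to 0.01 that held 0. The ratios ran from -1.02 at Foxr1 to 0.61 at Foxb1 with a median of 0.20, against 0.22 over all genes. Intervals above 0 were found at 7 members (25.1% of all genes), all widely expressed, and below 0 at 0 members (1.92%). The widely expressed members had a median of 136 tags in wt mESCs against 35.0 for the other 21, and so narrower intervals. Foxb1 at 0.61 and Foxc1 at 0.55 had higher ratios than any of the 7, with intervals that held 0. The highest of the 7 was Foxn2, at 0.54 (0.25 to 0.86). On the scale of promoter tags the medians became -0.04 for the members and -0.02 for all genes, and 1 widely expressed member, Foxn2, kept an interval above 0 (7.07% of all genes), while 2 members, Foxr1 and Foxe1, had one below 0 (6.92%). Foxh1 at 0.11 (-0.33 to 0.58), Foxd3 at 0.08 (-0.42 to 0.61) and Foxi3 at 0.12 (-0.37 to 0.63) did not differ beyond counting error, and these intervals leave out a 2-fold change.

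In PILECs, 0 of 32 members were lower by 2-fold or more in menin-null cells (1.32% of all genes) and 0 were higher (0.409%). The log2 ratios ran from -0.61 at Foxp1 to 0.67 at Foxr1, with a median of -0.15 against -0.09 over all genes. Intervals below 0 were found at 10 members (30.0% of all genes), and 9 of the 11 widely expressed members were among them. The widely expressed members had a median of 694 tags in wt PILECs against 113 for the other 21, and so narrower intervals. Foxp1 had 565 against 349 tags, a ratio of -0.61 (-0.81 to -0.41). Foxn3 had -0.49 (-0.75 to -0.24) in its window and 0.03 (-0.14 to 0.20) in the stretch from 1.0 to 2.0 kb where its mark was densest. The tenth member was Foxf2, a gene of gut mesenchyme, with 11.1 RPM in wt and 8.31 RPM in menin-null PILECs, at -0.42 (-0.74 to -0.11). On the scale of promoter tags 9 members kept an interval below 0 (17.7% of all genes), 8 of them widely expressed.

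Intervals above 0 were found at 3 members in PILECs (6.10% of all genes). Foxc2 had 142 tags in wt and 209 in menin-null PILECs, a log2 ratio of 0.64 (0.33 to 0.96). Foxd3 had 49 against 69 tags, a ratio of 0.57 (0.03 to 1.14) that became -0.15 with the H3K4me3 libraries thinned to the smallest. Foxo3 had 1143 against 1171 tags, a ratio of 0.12 (0.00 to 0.24). Input tags within 50 kb of the members gave menin-null to wt log2 ratios between -0.31 and 0.27 in mESCs and between -0.14 and 0.14 in PILECs. No member thus lay in a segment whose input differed by 2-fold between the genotypes. Input within 50 kb was not compared between mESCs and PILECs.

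**Figure D5:**
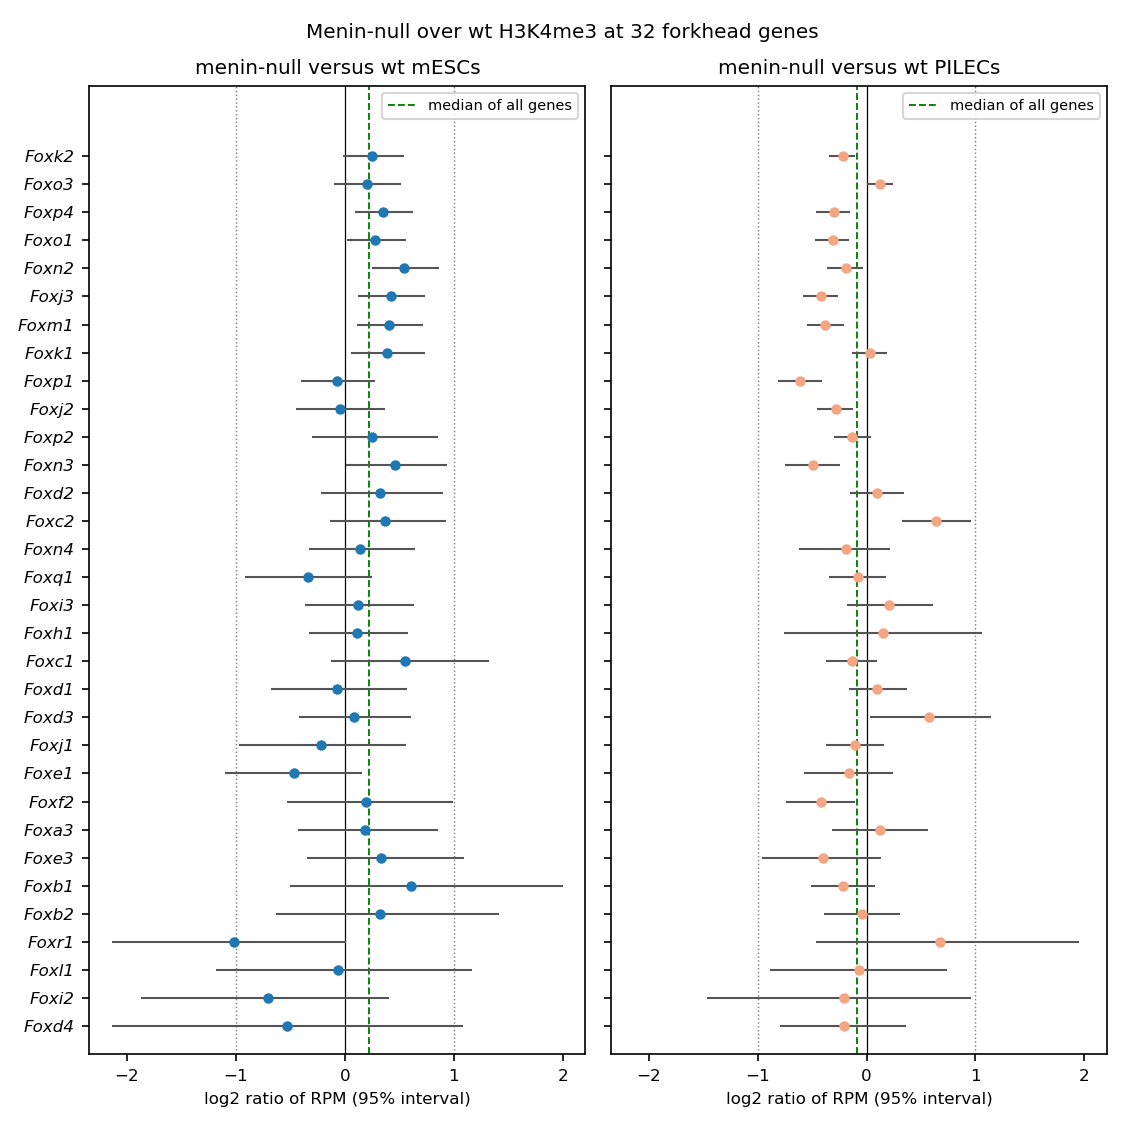
Log2 ratio of H3K4me3 RPM in menin-null over wt cells for 32 forkhead genes with 95% exact intervals for counting error, in mESCs (left) and PILECs (right), ordered by mean level, with dotted lines at 2-fold and a dashed line at the median of all genes. Foxr1 at -1.02 is the member past the 2-fold line in mESCs, and no member is past it in PILECs.

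The menin-null to wt ratio of PILECs was then set against that of mESCs in the same genes, which uses all 4 H3K4me3 libraries. The difference reached 2-fold with an interval away from 0 at Foxr1 alone, at 1.69 (0.12 to 3.41), and 1.75% of all genes differed by 2-fold or more in that direction. In the other direction 0 members reached 2-fold (4.42%). The widely expressed members had a median difference of -0.60 and the other 21 tested members had a median of 0.03, against -0.32 over all genes. An interval below 0 was found at 8 of the 11 widely expressed members, with values from -0.95 (-1.50 to -0.43) at Foxn3 to -0.48 (-0.78 to -0.18) at Foxk2, and at 0 of the other 21, against 32.4% of all genes. An interval above 0 was found at Foxr1 alone (1.36%). The widely expressed members also had more tags, with a median of 136 in wt mESCs against 35.0 for the other 21, and so narrower intervals. On the scale of promoter tags the median of all genes was 0.01, that of the widely expressed members was -0.27, and 5 of 11 kept an interval below 0 (8.69% of all genes).

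At Foxc2 a larger share of the tags lay away from the start in PILECs than in mESCs. Of its tags within 5 kb, with no input removed, the share beyond 1 kb was 26.6% (exact binomial 95% interval 16.3% to 39.1%), 35.0% (27.1% to 43.6%), 70.1% (65.8% to 74.2%) and 61.6% (57.3% to 65.7%). The medians over all tested genes were 13.9%, 11.9%, 15.8% and 16.0%, and those over the tested members were 35.9%, 35.7%, 40.5% and 45.1%. From 1.0 to 3.0 kb after the start the 4 libraries held 4.52, 11.4, 11.3 and 11.1 RPM, with a log2 ratio of 1.21 (0.46 to 2.35) in wt and -0.07 (-0.53 to 0.49) in menin-null cells. In wt cells the stretch thus rose while the start window fell, and in menin-null cells the start window alone fell, at -1.11 (-1.46 to -0.72). Over the whole 5 kb on both sides they held 26.3, 39.0, 25.3 and 30.8 RPM, with log2 ratios of -0.08 (-0.44 to 0.34) in wt and -0.35 (-0.61 to -0.06) in menin-null cells. The 2-fold call of Foxc2 as lower in PILECs thus held for the window at its start and not for the 5 kb on both sides, in either genotype.

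Some members are neighbours in the genome, and their values are given side by side, with no test of the differences between them. On chromosome 13, Foxq1, Foxf2 and Foxc1 lie 67.6 kb and 181 kb apart, with log2 ratios of PILECs to mESCs of -0.56, 0.07 and 0.71 in wt and -0.30, -0.55 and 0.03 in menin-null cells, where all 3 intervals held 0. On chromosome 4, Foxd2 and Foxe3 lie 17.2 kb apart, with -0.33 (-0.76 to 0.19) and -1.57 (-2.19 to -0.84) in wt cells. In menin-null cells they had -0.55 (-0.90 to -0.16) and -2.30 (-2.89 to -1.71). On chromosome 8, Foxc2 and Foxl1 lie 11.8 kb apart, with -1.37 and -1.74 in wt and -1.11 and -1.74 in menin-null cells, so both were called lower in both genotypes. Of the 34 members, 9 had 1 exon in their longest model, all of them developmental genes.

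The remaining tested members were called in none of the comparisons. Foxj1, the regulator of motile cilia, had 11.5, 9.95, 13.6 and 12.6 RPM, with log2 ratios of PILECs to mESCs of 0.19 in wt and 0.31 in menin-null cells. Foxd1, a gene of kidney stroma, had -0.40 and -0.22, and Foxd2 had -0.33 and -0.55. Foxq1, an epithelial gene, had -0.56 and -0.30. Foxb2, the close relative of Foxb1, had 0.33 and -0.02 where Foxb1 had 1.49 and 0.67. Foxd4 rested on 8 tags in each mESC library, with -0.21 and 0.11. Foxj2 and Foxk1, both widely expressed, had 0.00 and -0.23, and -0.51 and -0.86.

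Genes that work with the members were read in lists, beside all genes, of which 15.0% were lower and 6.62% higher from mESCs to PILECs in wt cells (median -0.04) and 23.5% and 5.08% in menin-null cells (median -0.35). Of 12 genes of Nodal signalling and FOXH1, 6 were lower by 2-fold or more in wt PILECs than in wt mESCs and 0 were higher, with a median of -1.15, and 8 were lower in menin-null cells, or 66.7% and a median of -1.47. The ligand Nodal had -2.72, its co-receptor Tdgf1 -4.76, and the Nodal antagonists Lefty1 and Lefty2 -3.34 and -3.64, whereas the receptor gene Acvr1b had 0.17. Tdgf1, Lefty1 and Lefty2 were under 2 RPM in both PILEC libraries and passed the filter of 2 RPM through their mESC values. Their fall was thus partly set in advance, and Tdgf1 is also among the mESC genes read above. In both comparisons of genotypes 0 genes of the Nodal, FOXO and FOXM1 lists were called. Of all genes 1.40% were lower and 1.11% higher in menin-null mESCs, and 1.32% and 0.409% in menin-null PILECs. In PILECs intervals lay below 0 at 9 of 10 FOXM1 targets, 4 of 12 Nodal genes and 4 of 15 FOXO genes. The share of all genes was 30.0%, and intervals lay above 0 at 0, 1 and 1 of these (6.10% of all genes). Of 15 genes of FOXO signalling 0 were called in wt cells and 4, or 26.7% and so near the share of all genes, were lower in menin-null cells, with Sirt1, a deacetylase of FOXO proteins, at -2.69. Of 10 mitotic targets of FOXM1, 1 was lower in wt cells, Cenpf at -1.11, which is under the share of all genes, and 4 (40.0%) were lower in menin-null cells. Of the 9 FOXJ1 cilia genes that could be placed, 2 (22.2%) were lower and 2 higher in wt cells, with Dnali1 at 1.45 and Tekt2 at -2.86, and 5 (55.6%) were lower and 1 higher (11.1%) in menin-null cells. Tekt1 and Tekt2, the 2 lower in wt cells, were likewise under 2 RPM in both PILEC libraries. Of these 9, Tekt1 and Ccdc39 were past 2-fold lower in menin-null than in wt mESCs, on few tags: Tekt1 had 9 against 17, at -1.38 (-2.80 to -0.20), and Ccdc39 had 8 against 13, at -1.17 (-2.71 to 0.15), an interval that held 0. The 2 were 22.2% of the list, against 1.40% of all genes. In menin-null against wt PILECs 0 of the 9 were called (1.32% of all genes lower, 0.409% higher). All 9 ratios were below 0 there, with a median of -0.47 against -0.09 over all genes. Intervals lay below 0 at 3 of them (33.3%, against 30.0% of all genes).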

How the data were processed

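The 8 libraries, 4 of H3K4me3 and 4 of input, stood for 1 condition each and were used as deposited. Per the methods, the authors aligned 36-bp reads to mm9 (also the build in the submitters' processing notes) and retained unique hits with at most 2 mismatches. The aligner is not given in the sources used here. The authors deposited 1 line for each tag with its position, which is unnormalized, so values here are counts of tags. The alignment score deposited with each tag was not used. From 1.04% to 1.81% of tags had over 2 mismatches, and 4.17% to 11.5% of H3K4me3 tags shared a position and strand. All were kept.

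Tags were moved to the middle of a 250-bp fragment and counted within 1 kb of each annotated start of an mm9 annotation of 26213 genes and 75531 starts. For each gene the start with the highest sum of H3K4me3 RPM over the 4 libraries was used. Counts were scaled to all tags of the library (RPM). Genes with a mean of at least 2 RPM were set against each other as log2 ratios of RPM, with 1 tag added to each count, and 2-fold was called. Intervals are exact conditional (Clopper-Pearson), at 95%, and cover counting error only, as do limits of 3 tags for a count of 0, since duplicate tags are not independent molecules. Totals of 2432377 to 18773635 tags set the precision. Values in all 4 H3K4me3 libraries were printed for members called in any comparison and for the 3 highest means. Foxp2, Foxc1, Foxj1, Foxn1 and Foxi1 were added after their values were seen, and other members were summarised. The members and lists were chosen with earlier results of these data known. The authors' microarrays were not analysed here. Python 3.11.15, numpy 2.4.6, pandas 2.3.3, scipy 1.17.1 and matplotlib 3.10.9 were used, and ratios and intervals were tested on simulated data.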

Additional observations from a re-analysis of the deposited data

Results flagged for a closer look

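Foxr1 had a menin-null to wt log2 ratio that differed between the stages by 1.69 (95% interval 0.12 to 3.41, counting error only), being lower in menin-null mESCs and higher in menin-null PILECs. It rested on 20, 14, 11 and 17 tags, neither PILEC library was marked over its input (0.760 times in wt and 1.84 times in menin-null cells), and each ratio alone had an interval that held 0.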

How the results depend on the processing

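No paired analysis was possible because each condition had 1 library. All alternatives were planned. The mESC libraries are the shallow ones, and members with 8 to 20 tags there, such as Foxr1, Foxi2 and Foxd4, have intervals over 2 log2 units wide in the comparison of mESC genotypes. Of the ratios of single members, 1369 moved by no more than their interval, 165 moved further and 2 that were past 2-fold changed sign, and of the counts 145 held within 1.5 times. Those 2 were Foxc2 at 0.38 and Foxe1 at 0.15 in menin-null stages when divided by the input ratio within 5 kb. Counting smaller ratios whose interval left out 0, 13 changed sign, 9 of them on that division, among them Foxo1 from -0.81 to 0.42 and Foxk1 from -0.51 to 0.82 in wt cells. The cause was not tested.

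For menin-null against wt mESCs, the 1 member lower became 0 with each position counted once, 5′ ends, a 2-kb window, thinned libraries, a 3-fold call, an interval without 0 or a mean of 5 RPM. It became 3 with the outermost start and 2 at 1.5-fold. The 0 higher became 2 with input subtracted and 1 at 1.5-fold. For PILECs, the 0 lower became 1 with input subtracted or at 1.5-fold, and the 0 higher became 1 with input subtracted and 2 with thinned libraries or at 1.5-fold.

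For wt PILECs against wt mESCs, the 11 lower became 6 on division by input and 17 at 1.5-fold. The 1 higher became 0 with a 500-bp window or a 3-fold call, 2 with input subtracted or no filter, 3 at 1.5-fold and 7 on division by input. For the menin-null stages, the 18 lower became 8 on division by input and 9 at 3-fold, and the 0 higher became 1 with promoter tags or the median as scale, with input subtracted or at 1.5-fold, and 2 on division by input. With both H3K4me3 and input scaled by promoter tags, which by construction lowers enrichment at promoters, 9, 10, 14 and 12 members were marked in wt mESCs, menin-null mESCs, wt PILECs and menin-null PILECs.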
